A study of Mus musculus with 30 samples.

Results

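SPT16 depletion after 12 h of auxin was described over the genes, upstream promoter transcripts and enhancer transcripts of mouse E14 embryonic stem cells. The members were all genes with a mean count above 0 in the authors' deposited 12 h gene table, 17986 of 21859. The deposited 12 h tables of 3 noncoding classes were read beside them. Per the labels, the series holds 30 libraries, of which 6 name the 12 h tables, in 3 groups of 2. They are E14 cells with Supt16 tagged by mini-AID and 3xV5 (SPT16_AID_V5) under 3-IAA, the same tagged cells under the EtOH vehicle, and untagged cells under 3-IAA. All carry the auxin receptor osTIR1, and 3-IAA was given at 500 nM. The 2 tagged libraries of each group are Clone1 and Clone2, 1 library a clone, and the untagged ones are Rep1 and Rep2. All were grown without feeders in serum with LIF, the GSK inhibitor CHIR99021 and a MEK inhibitor. The time and treatment of a library rest on its title, since the treatment field contradicts the title for many libraries, and the treatment protocol gives 24 h.

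SPT16 is the large subunit of FACT, a histone chaperone that lifts H2A-H2B dimers ahead of RNA polymerase II and rebuilds nucleosomes behind it. In embryonic stem cells FACT is also known as a partner of pluripotency factors at promoters and enhancers. Fusion to the AID tag lets auxin and osTIR1 direct the protein to the proteasome, while its messenger RNA is left in place. TT-seq reads RNA made during a short pulse of 4-thiouridine, here 5 min, and so follows transcription across whole gene bodies, introns included.

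The deposited tables give per feature a mean count, a log2 change with its standard error, a p-value and an adjusted p, and no value of any single library. The sources used here do not say which groups were compared or in which direction. Changes are therefore called positive or negative as signed, and no group is called the higher one. A feature is called where its adjusted p in the authors' deposited table is under 0.05. The SE printed after each log2 change is the authors' own. Of the 17986 genes, 15917 had an adjusted p. The other 2069 had mean counts of at most 1.30 and were not tested.

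The stem cell markers were high in these libraries. All 8 fixed markers (Pou5f1, Sox2, Nanog, Zfp42, Esrrb, Utf1, Dppa5a and Tdgf1) lay at or above the 95.2 percentile of mean count per kb of gene in the 12 h table. Their levels ran from 184 counts per kb for Esrrb to 4478 for Dppa5a. Markers of other lineages were mostly low. Medians per kb over tested members were 0.943 for primitive endoderm, 3.25 for trophoblast, 1.28 for mesoderm, 1.01 for neural cells and 0.963 for fibroblasts. These lists had 18, 16, 15, 15 and 10 tested members, and the highest reached 143, 64.8, 33.5, 113 and 437 counts per kb. In the same order, 3 of 20, 5 of 20, 3 of 20, 6 of 20 and 3 of 16 genes exceeded 10 counts per kb, and 1, 2, 0, 3 and 2 were listed at 0. Their part in the results below was not tested. The FACT genes themselves were not called: per the authors' deposited table Supt16 stood at 0.06 ± 0.28 (SE, adjusted p = 0.892) and Ssrp1, the small FACT subunit, at 0.03 ± 0.38 (adjusted p = 0.949).

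Calls at 12 h split by mean count. A total of 1366 genes were positive (8.58% of tested genes) and 1932 negative (12.1%), in either direction 20.7%. The median over all tested genes was 0.01 on the log2 scale, and 51.3% of tested genes had a positive sign. Positive changes were larger and negative ones more frequent among abundant genes. Of the positive genes 923 reached an absolute log2 change of 1 and 282 reached 2, against 787 and 70 of the negative genes. The median mean count was 113 for positive, 2088 for negative and 322 for uncalled genes. Among the 916 genes with mean counts of at least 5000, 471 were negative and 1 was positive. That gene was H3f3b, which encodes the replacement histone H3.3, at 1.43 ± 0.57 (adjusted p = 0.0108) per the authors' deposited table.

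**Figure D1:**
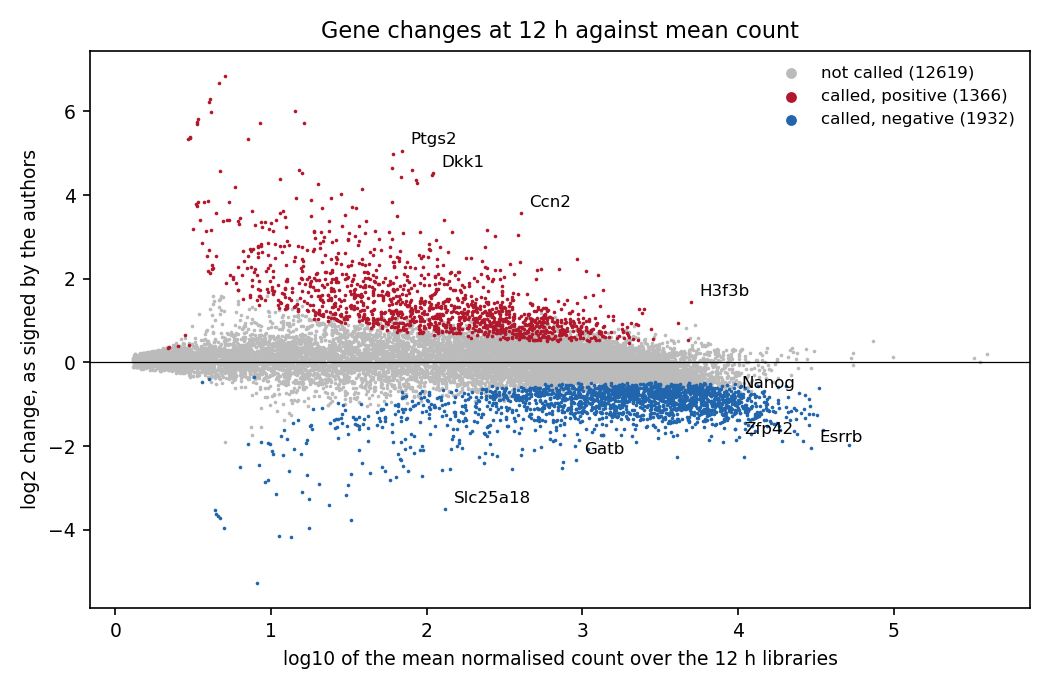
Log2 change at 12 h (vertical, as signed by the authors) against log10 of the mean count (horizontal) for the 15917 tested genes, 1 point a gene. Red points are the 1366 positive calls, which thin out toward high counts, and blue points the 1932 negative calls, which fill the right of the plot. Grey points are the 12619 genes not called.

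Negative calls rose with gene length. Length here is the annotated span of a gene in the GENCODE M21 annotation of mm10, which matched 15909 of the tested genes. In the shortest decile of genes, up to 4.67 kb, 1.38% were negative and 11.3% positive, with a median log2 change of 0.23. In the decile from 77.2 to 139 kb, 20.4% were negative and 5.59% positive, with a median of −0.23. Among the longest decile, above 139 kb, 20.3% were negative but positive calls stood again at 8.55%. Genes of a single exon, 477 in all, held 57 positive and 7 negative calls, a median of 0.16.

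Negative calls also rose with level. Level was taken from libraries outside the 12 h set, the 4 vehicle libraries of the washout experiment, as the mean CPM per kb of gene. This measure can place a gene too low: Sox2 had 0 CPM per kb there but 1555 counts per kb in the 12 h table. How many genes this touches was not tested. In the lowest decile 1.45% of genes were negative and 10.5% positive. In the highest decile, above 4.83 CPM per kb, 22.7% were negative and 2.01% positive. The positive share was highest in the decile from 0.0522 to 0.176 CPM per kb, at 15.2%. The mean count per kb of the 12 h table itself gave 18.1% negative and 2.39% positive in its highest decile. The median mean count moved with both measures, and the part of counting precision in the called shares was not tested. In sign, the highest decile of mean count per kb had 50.6% positive genes and a median of 0.01, and the highest decile of vehicle level 41.3% and −0.11.

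Length and level were then crossed. Genes over 100 kb in the top quartile of vehicle level numbered 143, and 103 of them (72.0%) were negative while 0 were positive. In sign, 98.6% of these genes were negative, and their median was −0.95. Genes of 30 to 100 kb in the same quartile were negative in 44.5% of 872 cases, with a median of −0.52. Those of 10 to 30 kb were negative in 18.5% of 1568, with a median of −0.11. Genes under 10 kb in this quartile were negative in 3.80% and positive in 4.59% of 1393 cases, with a median of 0.17 and 29.4% negative signs. Level was not equal across these classes: the quartile began at 2.38 CPM per kb in each, but reached 507 in genes under 10 kb and 20.2 in genes over 100 kb.

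Long genes of low level were rarely negative. Among genes over 100 kb in the lowest quartile of vehicle level, 14.7% of 1098 were positive and 4.01% negative, with a median of 0.11. Under 10 kb, the same quartile held 13.02% positive and 0.740% negative genes of 676. The largest positive share over the 16 classes was 17.6%, at 10 to 30 kb in the second quartile, and the next was 17.03%, under 10 kb in the third quartile. The median mean count of the long, strongly transcribed class was 9974, against 552 for short genes of the same quartile, since a long gene collects more reads at the same density.

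**Figure D2:**
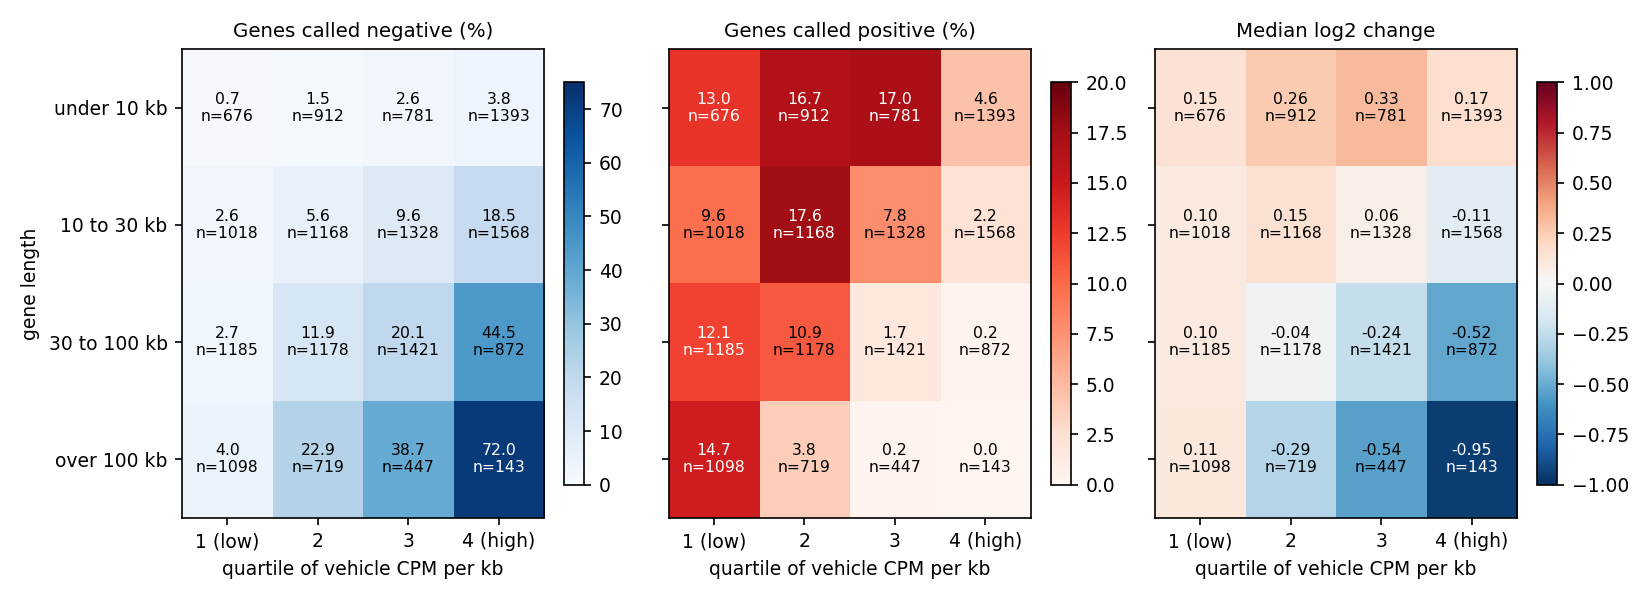
Share of genes called negative (left), share called positive (middle) and median log2 change (right) at 12 h, by gene length (rows) and quartile of vehicle CPM per kb (columns), with the number of tested genes in each cell. The negative share rises toward the lower right corner, to 72.0%, and the positive share is highest at 17.6%, for genes of 10 to 30 kb in the second column.

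The long, strongly transcribed class included regulators of transcription and chromatin among its most negative members, and their share of the class was not counted. Its most negative member per the authors' deposited table was Esrrb, an orphan nuclear receptor of the naive state (chr12:86361117-86521628, plus strand, 161 kb), at −2.05 ± 0.35 (adjusted p = 2.47e-08). Kat6b, a histone acetyltransferase (chr14:21481434-21672478, plus strand, 191 kb), followed at −1.98 ± 0.41 (adjusted p = 3.15e-06) per the authors' deposited table. Gli2, a transcription factor of Hedgehog signalling, was at −1.89 per the authors' deposited table. Nrf1, an activator of nuclear genes for mitochondrial proteins, was at −1.77 and the chromatin remodeller Chd2 at −1.70 per the authors' deposited table. The focal adhesion gene Tns3 (−1.70), the guidance ligand Ntn1 (−1.63), the actin nucleator Cobl (−1.61) and the inositol kinase Itpk1 (−1.61) were also among its most negative members per the authors' deposited table. These genes were named after their values were seen.

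The class was not uniform. In the authors' deposited table the laminin chain Lamc1 was at −0.18 ± 0.21 (adjusted p = 0.541), the cadherin Fat1 at −0.19 ± 0.21 (adjusted p = 0.498) and the cytoskeletal scaffold Iqgap1 at −0.32 ± 0.18 (adjusted p = 0.149). Only Gphn (0.14) and Cmss1 (0.20) had a positive sign per the authors' deposited table, and Camk1d stood at −0.07. These 3 had the highest mean counts among the uncalled genes of the class, 99079, 399175 and 55024, and in the authors' deposited washout table they stood at 3.28, 3.57 and 2.14.

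The longest called genes differed in level. The 5 longest positive genes in the 12 h table were Dlg2, a synaptic scaffold (1.62 ± 0.48), Rbfox1, a neuronal splicing factor (1.21 ± 0.43), Naaladl2 (0.96 ± 0.38), the synaptic adhesion gene Lrrc4c (1.52 ± 0.48) and the teneurin Tenm2 (1.55 ± 0.49), all from the authors' deposited table. Each spans over 1 Mb, and their vehicle levels lay between 0.0010 and 0.0032 CPM per kb. Of the 5 longest negative genes, Dmd (−0.95 ± 0.38), Macrod2 (−1.02 ± 0.38), Cntnap2 (−0.87 ± 0.35) and Dab1 (−0.76 ± 0.36) per the authors' deposited table lay between 0.0069 and 0.102 CPM per kb. Those genes likewise span over 1 Mb. The remaining one, Fgfr2 (−0.78 ± 0.24 per the authors' deposited table), was at 0.0280 CPM per kb and spans 2961 kb in GENCODE M21 but 104 kb in RefSeq. These genes were picked by length and call, and their levels were not tested. Of the tested genes, 297 had a GENCODE span over 3 times their RefSeq length.

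The autosomes differed in negative calls. The negative share ran from 6.99% of 544 genes on chromosome 19, where the median length was 18.9 kb, to 17.4% of 380 on chromosome 18, where it was 42.8 kb. Length did not order the chromosomes throughout: chromosome 17, at 16.1 kb, had 11.9% and chromosome 1, at 35.1 kb, 12.6%. Positive shares ran from 6.21% on chromosome 14 to 10.3% on chromosome 18. On the X chromosome 10.6% of 558 genes were negative.

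The length pattern was present in sign at earlier times, each in a table that names libraries of its own. At 6 h the long, strongly transcribed class had 94.4% negative signs and a median of −0.23, with 5 negative and 0 positive calls, per the authors' deposited table. Short genes of the same quartile had 24.4% negative signs, a median of 0.09 and 45 positive calls there. At 3 h the shares of negative signs per the authors' deposited table were 93.0% and 10.3%, with medians of −0.10 and 0.09. At 0 h they were 44.8% and 33.5%, and the log2 changes were near 0, with medians of 7.65e-07 and 1.52e-06. The tables of the 4 times draw their values toward 0 to different degrees, so the sizes are given side by side and not compared. In the authors' deposited washout table, which sets cells given 24 h without auxin against vehicle, the long class had 45.5% negative signs and a median of 0.03. Short genes there had 69.6% and −0.21.

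Groups of genes are described next by how many tested members were called, to be read against 8.58% positive and 12.1% negative over all tested genes and a median of 0.01. Median gene length over all tested genes was 25.2 kb and median mean count 365. The called shares also differed by mean count. In the highest decile of mean count 42.8% of genes were negative and 0.189% positive. In the decile from 20.3 to 68.6 counts 20.4% were positive and 4.33% negative. From 68.7 to 181 counts 18.7% were positive and 6.22% negative. Lists of low mean count are to be read against these positive shares too. List lengths and mean counts are given for many lists, and their part in a list's calls was not tested. Genes can stand in more than 1 list.

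Genes of the naive pluripotency network, which keeps stem cells self-renewing under LIF, held many negative members. Of 36 tested, 15 were negative and 1 positive, with a median of −0.31, a median length of 12.8 kb and a median mean count of 3428. Besides Esrrb, the negative members per the authors' deposited table included Zfp42 (chr8:43295063-43306980, minus strand), the marker known as Rex1, at −1.85 ± 0.25 (adjusted p = 9.51e-12). The junction gene Jam2 stood at −1.19, the T-box factor Tbx3 at −1.15, the nuclear receptor Nr5a2 at −1.13, the germline and stem cell factor Prdm14 at −1.07 and threonine dehydrogenase Tdh at −1.04 per the authors' deposited table. Nefh, a neurofilament gene on this list, was positive at 1.32 ± 0.47 per the authors' deposited table. Sall4 (−0.07, adjusted p = 0.864), Dppa5a (0.33, adjusted p = 0.413) and Rif1 (−0.56, adjusted p = 0.0989) were not called per the authors' deposited table.

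Genes of the formative and primed states, which follow the naive state, held positive calls and 0 negative ones. Of 23 tested, 8 were positive and 0 negative, with a median of 0.22 and a median mean count of 126, while 15 were not called and 6 had a negative sign. Per the authors' deposited table, Id2, an inhibitor of basic helix-loop-helix factors (chr12:25093799-25097140, minus strand), led with 4.47 ± 0.38. Sox3 (3.13 ± 1.01), Sox11 (2.07 ± 0.62) and Pou3f1 (1.80 ± 0.82), transcription factors of early neural cells, were positive per the authors' deposited table. Dnmt3a (0.20, adjusted p = 0.555) and Dnmt3b (0.28, adjusted p = 0.457), the de novo DNA methyltransferases, were not called per the authors' deposited table. Of 16 Sox genes 3 were positive and 0 negative, and of 19 tested Hox genes, with a median mean count of 8.03, 4 were positive and 0 negative, led among those with counts above 100 by Hoxb9 (2.10 ± 0.37 per the authors' deposited table).

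Several lists of chromatin regulators held many negative members. Of 57 histone methyltransferases and demethylases, 16 were negative and 3 positive, with a median of −0.18, a median length of 44.0 kb and a median mean count of 2759. In the authors' deposited table the H3K4 demethylase Kdm5b was at −1.13 ± 0.25, the H3K36 methyltransferase Nsd1 at −1.08 ± 0.25 and Jmjd1c at −1.06 ± 0.29, while Setd7 was at 0.96 ± 0.25. Of 47 remodellers 13 were negative and 3 positive, at a median length of 49.2 kb and a median mean count of 1939. Arid1a, a BAF subunit, was at −1.21 ± 0.23, Atrx, which deposits H3.3 with Daxx, at −1.22 ± 0.31 and Bptf, of NURF, at −0.88 ± 0.23 per the authors' deposited table. The neural BAF subunits Dpf1 (1.39 ± 0.48) and Dpf3 (0.98 ± 0.50) were positive per the authors' deposited table, and Chd4 (0.32, adjusted p = 0.431) was not called.

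Of 34 Polycomb genes 8 were negative and 2 positive, with a median of −0.24, a median length of 41.98 kb and a median mean count of 1830. The PRC2 core genes Suz12 (−1.14 ± 0.27) and Eed (−0.91 ± 0.25) and the PRC2 partners Jarid2 (−1.24 ± 0.32) and Mtf2 (−1.18 ± 0.31) were negative per the authors' deposited table, whereas Ezh2, the catalytic subunit, stood at −0.45 (adjusted p = 0.140). In PRC1, Cbx7 (−1.27 ± 0.27) and Rybp (−1.24 ± 0.39) were negative and Pcgf5 (1.05 ± 0.25) and Bmi1 (0.99 ± 0.53) positive per the authors' deposited table. Of 21 genes of DNA methylation and its removal 4 were negative, among them the 5-methylcytosine oxidases Tet2 (−1.37 ± 0.31) and Tet1 (−1.14 ± 0.26) per the authors' deposited table. Gadd45b (1.42 ± 0.44 per the authors' deposited table) was the positive one.

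The transcription machinery around FACT gave calls in both directions. Of 29 genes of FACT, SPT and other elongation factors 5 were negative and 4 positive, with a median of 0.03. Per the authors' deposited table, the super elongation complex scaffold Aff1 was at −1.49 ± 0.37 and its partner Ell2 at −0.83 ± 0.26. Within the PAF complex Cdc73 was at −0.75 ± 0.31, while Paf1 (1.16 ± 0.51) and Ctr9 (1.01 ± 0.38) were positive per the authors' deposited table. Hexim1, which holds the kinase P-TEFb inactive, was at 1.12 ± 0.58 per the authors' deposited table, and Supt6 (0.51, adjusted p = 0.189) was not called. Of 22 histone chaperones other than FACT 3 were negative (13.6%) and 1 positive, the CAF-1 subunit Chaf1a at −0.65 ± 0.21 and the HIRA partner Ubn1 at 0.73 ± 0.21 per the authors' deposited table. Of 51 genes of RNA polymerase II and its general factors 6 were negative and 3 positive, and of 46 Mediator and Integrator genes 5 and 1 (10.9% and 2.17%).

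Zinc finger genes of the Zfp name formed the largest list and leaned negative, 77 of 343 tested against 14 positive, with a median of −0.20 and a median length of 17.9 kb. Most proteins of this family bind DNA through arrays of C2H2 fingers. Those named Zfp900 to Zfp999 held 20 negative and 1 positive of 58, with a median of −0.36. Zfp961 (−1.33 ± 0.28), Zfp986 (−1.37 ± 0.34) and Zfp951 (−1.31 ± 0.35) led these per the authors' deposited table, and Zfp964 (0.99 ± 0.34) was the positive one. Many of these genes are near-identical copies in clusters, so their counts are uncertain. Of 17 Krueppel-like factors 6 were negative and 0 positive, with Klf3 at −1.43 ± 0.29 and Klf5, a factor of the naive state, at −0.70 ± 0.24 per the authors' deposited table. Klf2 (−0.05, adjusted p = 0.907) and Klf4 (−0.24, adjusted p = 0.501) were not called per the authors' deposited table.

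Genes of replication and of mitosis were counted apart. Of 42 genes of replication licensing and origin firing 15 were negative and 0 positive, with a median of −0.28 and a median mean count of 1941. They included Pola1, of the primase complex, at −1.46 ± 0.30, the origin factor Ticrr at −1.07 ± 0.24, Mcm9 at −1.23 ± 0.37 and Mcm8 at −1.13 ± 0.28 per the authors' deposited table. The replicative helicase genes Mcm3 (−0.27, adjusted p = 0.469), Mcm5 (−0.24, adjusted p = 0.500) and Mcm6 (−0.15, adjusted p = 0.687) were not called per the authors' deposited table. Of 36 mitosis genes, with a median mean count of 2324, 4 were negative and 0 positive, near the 12.1% over all genes, with Cdk1 at −0.92 ± 0.27 and Ect2 at −1.10 ± 0.31 per the authors' deposited table. Replication-dependent histones, short genes without introns that are near-identical copies, were negative in 2 of 63 cases with a median of −0.27. In sign, 58 of the 63 were negative and 5 positive. All 63 together had a median mean count of 216.

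Genes of amino acid use and of aminoacyl-tRNA synthetases leaned negative, while translation initiation factors did not. Of 29 enzymes of serine, proline and one-carbon metabolism 8 were negative and 0 positive, with a median of −0.23 and a median mean count of 1522. In the authors' deposited table Mthfd1l, of the mitochondrial folate cycle, was at −1.50 ± 0.30, Phgdh, the first enzyme of serine synthesis, at −1.39 ± 0.26, Aldh18a1, of proline synthesis, at −1.12 ± 0.25 and asparagine synthetase Asns at −0.89 ± 0.20. Psat1 (−0.04, adjusted p = 0.923) and Cth (0.04, adjusted p = 0.907) were not called per the authors' deposited table. Of 45 amino acid transporters 8 were negative and 2 positive, among them the arginine carrier Slc7a1 (−1.58 ± 0.24, adjusted p = 8.50e-10 per the authors' deposited table). Of 38 aminoacyl-tRNA synthetases, with a median mean count of 1929, 10 were negative and 1 positive. Cars (−1.39 ± 0.23) and Dars (−1.07 ± 0.26) led per the authors' deposited table, with Hars2 (0.68 ± 0.26) the positive one. Of 65 translation initiation factors 7 were negative (10.8%) and 3 positive, with a median of 0.08. In sign, 39 of them were positive and 26 negative. Their Eif4a2 was at −1.28 ± 0.22 per the authors' deposited table.

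The regulators of the integrated stress response, the programme set off by amino acid shortage, carried few calls: of 23 tested, 2 were negative and 1 positive. Chac1, which degrades glutathione, was at −2.55 ± 0.62 and Nupr1 at −1.64 ± 0.60 per the authors' deposited table, while Atf3 was at 1.69 ± 0.32 and the central factor Atf4 at −0.32 (adjusted p = 0.401). The upstream bases of Chac1 and Atf3 are shown because both hold the amino acid response element TGATGCAA, in capitals on the opposite strand as TTGCATCA, and had opposite signs. They are the 250 bases before the start in RefSeq, build GRCm38.p6, written 5′ to 3′ along the gene. The element begins 193 bases before the start of Chac1 and 110 before that of Atf3.
Chac1, chr2:119350992-119351241, plus strand: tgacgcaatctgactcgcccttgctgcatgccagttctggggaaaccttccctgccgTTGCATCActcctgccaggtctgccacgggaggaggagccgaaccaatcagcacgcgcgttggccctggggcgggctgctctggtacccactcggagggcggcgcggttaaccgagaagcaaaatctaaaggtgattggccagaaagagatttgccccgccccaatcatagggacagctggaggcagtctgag
Atf3, chr1:191183334-191183583, minus strand: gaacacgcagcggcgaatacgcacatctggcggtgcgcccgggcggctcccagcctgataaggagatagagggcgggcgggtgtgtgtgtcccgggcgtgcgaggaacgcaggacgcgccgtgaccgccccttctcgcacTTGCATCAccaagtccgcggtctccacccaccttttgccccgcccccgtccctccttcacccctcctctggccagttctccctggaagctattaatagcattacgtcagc
Of 32851 RefSeq promoters, 0.791% held this element on either strand within 250 bases. A match is a description of the letters only. The table held a promoter for 78.4% of the tested genes, under the 80% set as a minimum, so motif shares were not compared between called and other genes.

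Genes of oxidative phosphorylation, the cytosolic ribosome and the proteasome carried few calls. Of 94 nuclear genes of oxidative phosphorylation 5 were negative and 0 positive, with a median of 0.18 and a median length of 7.33 kb. Atp5g2, a subunit c gene of ATP synthase, was the most negative at −1.60 ± 0.29 per the authors' deposited table. Of 83 cytosolic ribosomal protein genes 1 was negative, Rps15a at −0.96 ± 0.23 per the authors' deposited table, and the median was 0.08 at a median length of 3.37 kb. Of 47 proteasome genes 1 was negative, Psma3 at −0.77 ± 0.24 per the authors' deposited table, with a median of 0.13. The 12 tested mitochondrially encoded genes, copied by another polymerase, had 0 calls and a median of 0.29. Of 76 mitochondrial ribosomal protein genes 9 were negative (11.8%) and 0 positive. In glycolysis, apart from these, 5 of 29 were negative (17.2%) and 1 positive, with Pfkp at −1.22 ± 0.29 and Hk2 at −1.13 ± 0.28 per the authors' deposited table.

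**Figure D3:**
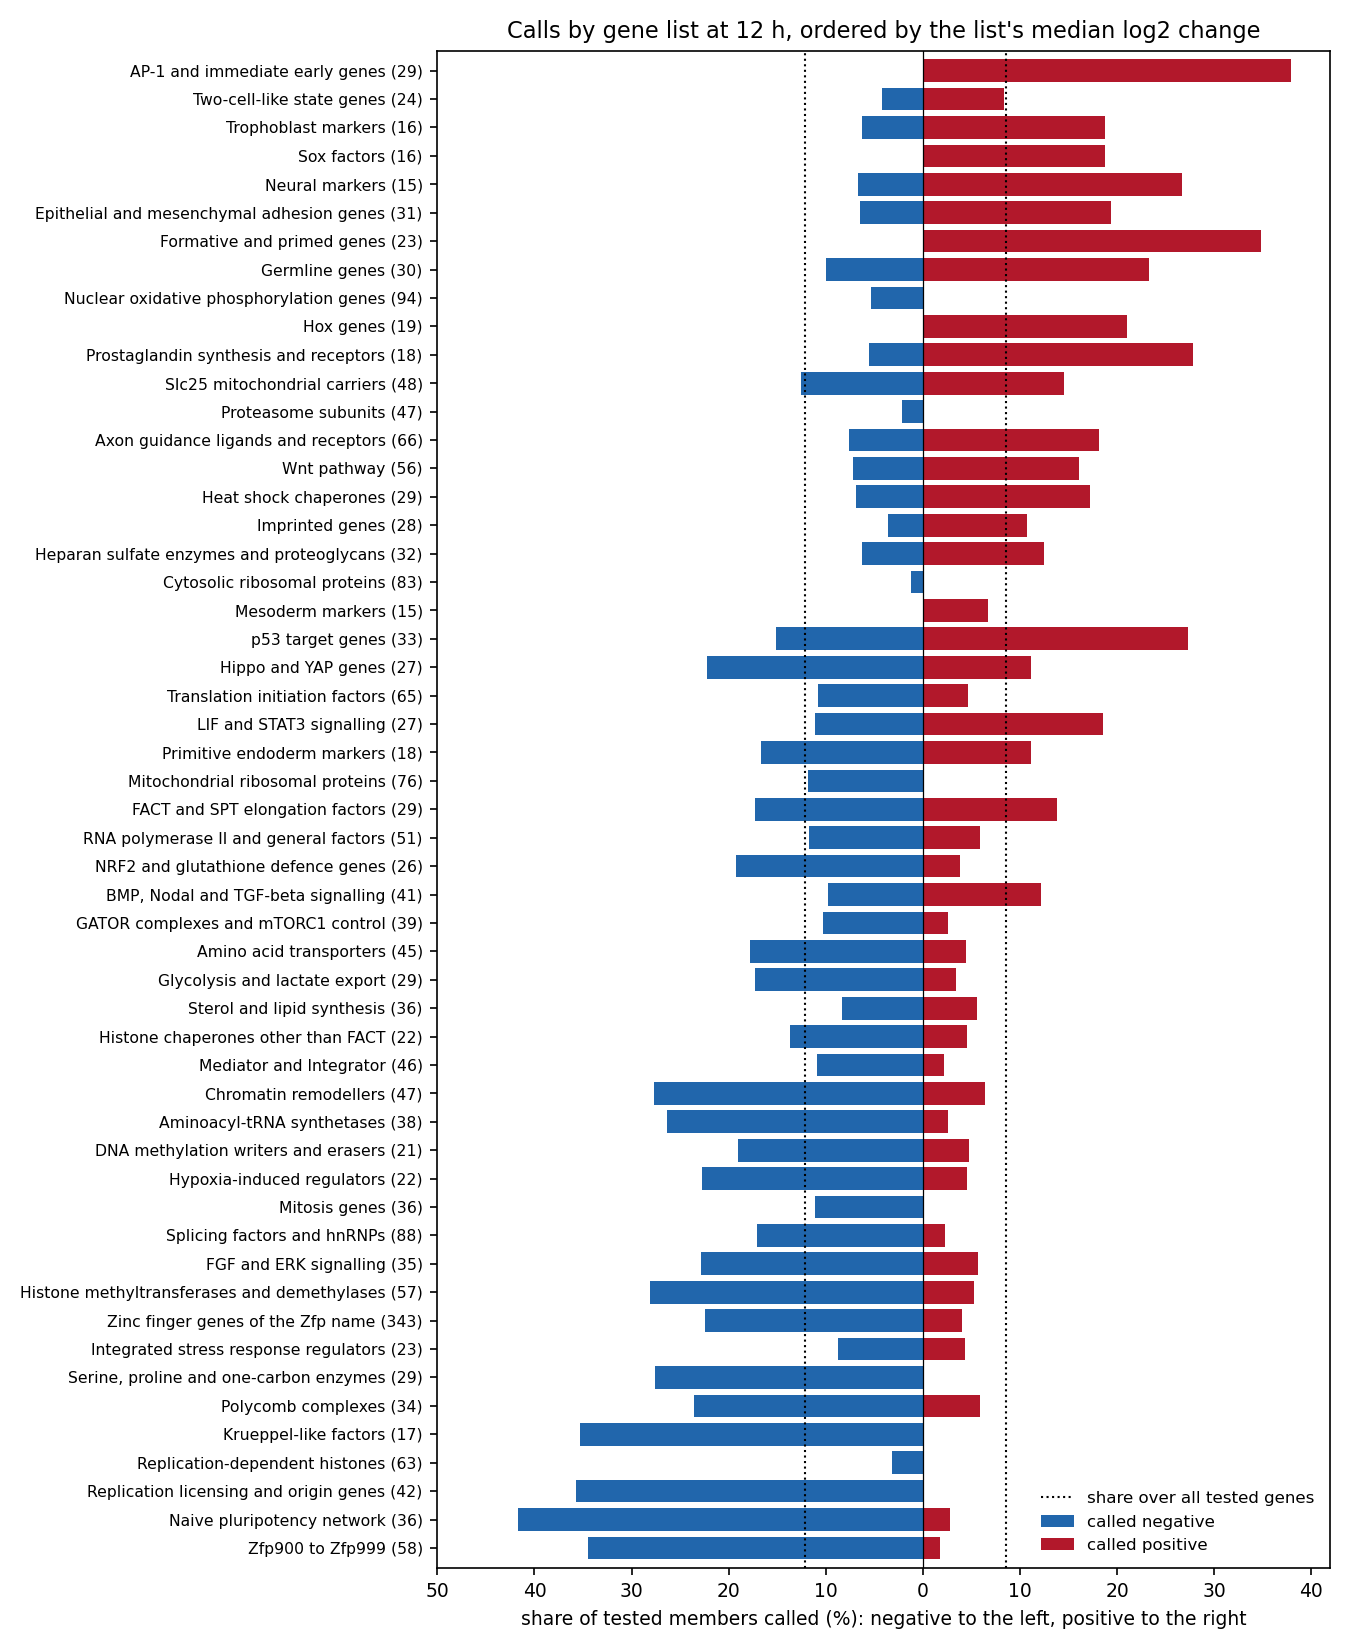
Share of tested members called negative (blue, to the left) and positive (red, to the right) at 12 h for each list of at least 15 tested genes, ordered by the list's median log2 change, with the number tested in brackets. Dotted lines mark the shares over all tested genes, 12.1% and 8.58%. Immediate early genes stand at the top with 0 negative members, and the naive network, replication licensing and the Zfp900 to Zfp999 genes at the bottom.

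Immediate early genes, which answer growth and stress signals within minutes, were positive in 11 of 29 cases and negative in 0, with a median of 0.39. Their tested members were short, with a median of 5.16 kb, and had a median mean count of 178. Per the authors' deposited table, the prostaglandin synthase Ptgs2, also known as COX-2, was at 5.06 ± 0.49, Egr1 at 3.63 ± 1.07 and Fos at 3.14 ± 0.56. The AP-1 subunits Jun (2.56 ± 0.41) and Junb (2.48 ± 0.54) were also positive per the authors' deposited table. Btg1 (−0.24, adjusted p = 0.481) and Mcl1 (−0.09, adjusted p = 0.821) were not called per the authors' deposited table. Prostaglandin genes held 5 positive and 1 negative of 18. Beside Ptgs2 the receptor Ptger3 was at 4.64 ± 0.57 and the degrading enzyme Hpgd at 1.75 ± 0.39 per the authors' deposited table.

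Heat shock chaperones held 5 positive and 2 negative of 29. In the authors' deposited table Hspa1a was at 4.27 ± 0.73, Hspa1b at 3.12 ± 0.63 and Hspa2 at 3.02 ± 0.41. Bag3, a cochaperone, was at −0.79 ± 0.22 per the authors' deposited table, and Hsp90aa1 (0.29, adjusted p = 0.464) was not called. Hspa1a and Hspa1b are near-identical copies, so the division of their reads is uncertain. The upstream bases of Hspa1a are shown because they hold the core of the heat shock element, GAANNTTC, in capitals, which begins 104 bases before the start. 6.69% of RefSeq promoters held this core within 250 bases.
Hspa1a, chr17:34972157-34972406, minus strand: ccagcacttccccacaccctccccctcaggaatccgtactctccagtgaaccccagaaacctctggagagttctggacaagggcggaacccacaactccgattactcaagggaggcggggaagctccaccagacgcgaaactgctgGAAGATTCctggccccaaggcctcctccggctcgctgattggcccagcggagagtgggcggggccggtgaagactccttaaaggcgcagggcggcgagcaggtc

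Signalling pathways gave calls in both directions. Of 56 Wnt pathway genes 9 were positive and 4 negative, with a median of 0.11. Per the authors' deposited table, the Wnt antagonist Dkk1 was at 4.52 ± 0.51, the ligands Wnt3 at 2.91 ± 0.66 and Wnt9a at 1.96 ± 0.35, and the receptor Fzd8 at 1.29 ± 0.32. The coreceptor Lrp6 (−1.13 ± 0.32) and the kinase Gsk3b (−0.89 ± 0.39), which CHIR99021 in the medium inhibits, were negative per the authors' deposited table. Ctnnb1, which encodes beta-catenin, was at 0.27 (adjusted p = 0.436) per the authors' deposited table. Of 41 genes of BMP, Nodal and TGF-beta signalling 5 were positive and 4 negative, with a median of −0.03. The targets Id1 (2.82 ± 0.78) and Id2 and the Nodal inhibitor Lefty1 (2.75 ± 0.68) were positive, and the inhibitory Smad7 was negative (−2.25 ± 0.40), per the authors' deposited table.

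Of 35 genes of FGF and ERK signalling 8 were negative and 2 positive. The ligand Fgf4 (−0.89 ± 0.31) and the target factor Etv5 (−1.36 ± 0.27) were negative per the authors' deposited table, and Egr1, with a mean count of 12.0, was the largest positive. Of 27 LIF and STAT3 genes 5 were positive and 3 negative. Pim2 (2.35 ± 0.58) and Socs1 (1.31 ± 0.76) were positive per the authors' deposited table, while Lifr (−0.12, adjusted p = 0.680) and Stat3 (−0.29, adjusted p = 0.244) were not called. In the Hippo list 6 of 27 were negative and 3 positive. The factors Yap1 (−0.87 ± 0.31), Tead1 (−1.24 ± 0.41) and Tead4 (−1.19 ± 0.35) were negative, while their targets Ccn2 (3.57 ± 0.39) and Ccn1 (1.88 ± 0.36) were positive, per the authors' deposited table.

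Axon guidance genes, many of them long, were positive in 12 of 66 cases and negative in 5, with a median length of 62.8 kb and a median mean count of 144. The semaphorins Sema6a (3.05 ± 0.30) and Sema6d (2.31 ± 0.41) and the ephrins Efnb2 (2.23 ± 0.26) and Efna3 (1.99 ± 0.42) were positive per the authors' deposited table. Ntn1 and the receptors Epha4 (−1.32 ± 0.55) and Nrp2 (−1.10 ± 0.41) were negative per the authors' deposited table. Ntn1 and Epha4 had mean counts of 12900 and 27049, and the positive Sema6d and Efnb2 had 62.0 and 707. Among adhesion genes 6 of 31 were positive and 2 negative, with Zeb2, a repressor of E-cadherin, at 3.11 ± 0.42 and Cdh1, E-cadherin itself, at −0.31 (adjusted p = 0.252) per the authors' deposited table.

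Targets of p53 held 9 positive and 5 negative of 33, with a median of 0.08. The death receptor Fas (3.25 ± 0.78), Pmaip1 (2.05 ± 0.41) and Bbc3 (1.14 ± 0.31), which encode Noxa and Puma, were positive per the authors' deposited table. Tigar (−0.95 ± 0.28) and Aen (−0.91 ± 0.26) were negative, and Cdkn1a (−0.15, adjusted p = 0.703) and Mdm2 (−0.31, adjusted p = 0.225) were not called, per the authors' deposited table. The list of genes of the state that resembles the early cleavage embryo held 2 positive and 1 negative of 24. Its Zscan4c, one of several near-identical copies and so uncertain, was at 1.29 ± 0.80 (adjusted p = 0.0456) per the authors' deposited table. The germline list held 7 positive and 3 negative of 30.

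Mitochondrial carriers of the Slc25 family held 7 positive and 6 negative of 48. Slc25a18, a glutamate carrier (chr6:120773578-120794336, plus strand), was at −3.50 ± 0.51 per the authors' deposited table, the most negative of all genes with mean counts of 100 or more. The most significant negative gene was Gatb, a subunit of the mitochondrial glutamyl-tRNA amidotransferase, at −2.34 ± 0.27 (adjusted p = 2.15e-16) per the authors' deposited table. Det1 (−2.24 ± 0.26, adjusted p = 5.71e-16), a ubiquitin ligase adaptor, and the Rieske domain gene Rfesd (−2.26 ± 0.29, adjusted p = 3.22e-13) followed per the authors' deposited table. Nprl3, a GATOR1 subunit that restrains mTORC1, stood at −2.51 ± 0.38 per the authors' deposited table, while the list of GATOR and mTORC1 control genes held 4 negative and 1 positive of 39.

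Neighbouring genes were compared by orientation. Of pairs of adjacent tested genes with a gap of at most 10 kb and both called, divergent pairs had the same sign in 38 of 57 cases (66.7%), tandem pairs in 66 of 109 (60.6%) and convergent pairs in 28 of 71 (39.4%). Pairs 10 to 100 kb apart gave 58.8%, 58.3% and 42.3% in the same order, over 80, 175 and 52 pairs. Those over 100 kb apart gave 67.4%, 46.9% and 44.8%, over 46, 81 and 29 pairs. The same-sign share of called genes paired without regard to position was not computed. Cfap61 and Insm1, a neuroendocrine zinc finger factor, in tandem 6.88 kb apart, were at 2.49 and 6.01 per the authors' deposited table. Smg6, a nonsense-mediated decay endonuclease, and the repressor Hic1, convergent with a gap of 0.116 kb, had opposite signs, −1.36 and 3.69, per the authors' deposited table. Cecr2 and Slc25a18, in tandem 2.39 kb apart, were at −0.84 and −3.50 there. The sources do not state whether the 12 h counts used the strand, so values of overlapping genes such as L1cam (4.59) and Arhgap4 (0.89) per the authors' deposited table are uncertain.

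Noncoding features were called less often. PROMPTs are short transcripts upstream of promoters, eRNAs come from enhancers, and DHSs are DNase-hypersensitive sites. Of the 3052 PROMPTs tested in the authors' deposited tables, 95 were positive (3.11%) and 59 negative (1.93%), and 11683 had counts. Of 6056 tested eRNAs 154 were positive (2.54%) and 122 negative (2.01%). Of 5638 tested DHSs 203 were positive (3.60%) and 323 negative (5.73%). All 3 medians lay within 0.03 of 0.

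As among genes, negative calls gathered at high counts. The highest quintile of DHSs by mean count, from 20.8 upward, held 226 of the 323 negative calls, 20.1% of the features in that quintile, and 58 positive ones. Its median was −0.24. The highest quintile of PROMPTs held 40 of 59 negative calls, with a median of −0.17, and that of eRNAs 64 of 122, with a median of −0.01. The lowest quintile held 0 negative calls in all 3 classes. Counts were low throughout, with median mean counts of 5.13 for PROMPTs, 9.98 for eRNAs and 8.14 for DHSs.

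**Figure D4:**
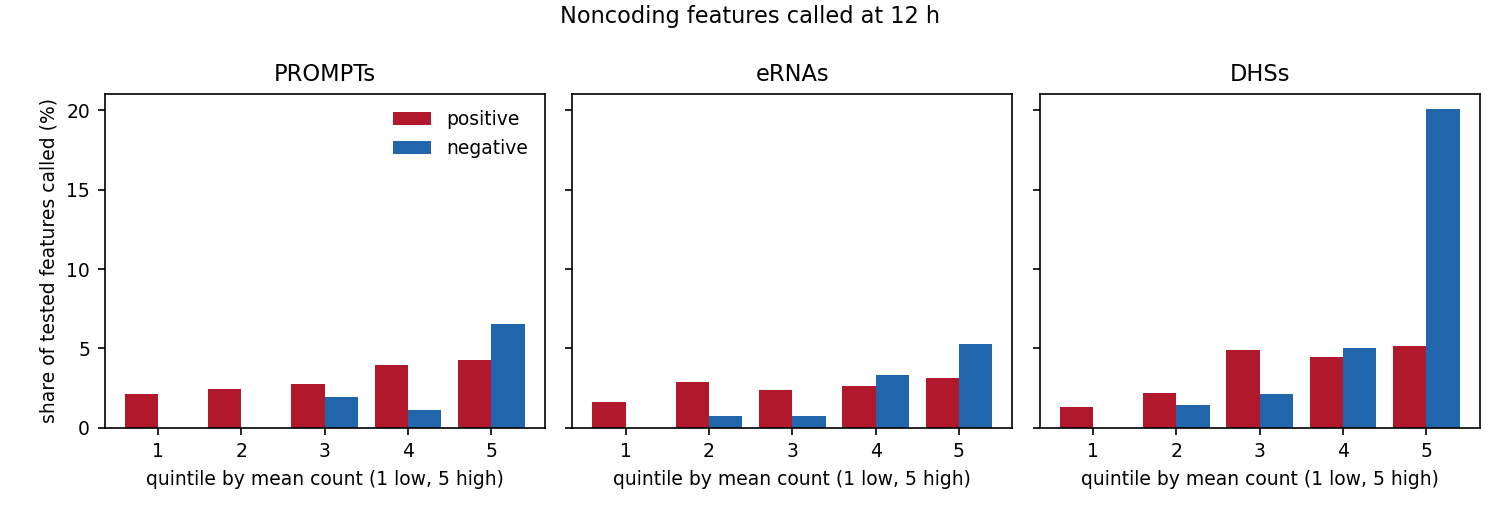
Share of tested PROMPTs, eRNAs and DHSs called positive (red) and negative (blue) at 12 h in each quintile by mean count. The negative bars grow from 0 in the lowest quintile to 6.56%, 5.28% and 20.1% in the highest, and the positive bars change less.

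The named noncoding features had mean counts of 50 or more. DHS195939 had the smallest p of these per the authors' deposited table, at −2.73 ± 0.29 (adjusted p = 3.21e-19, mean count 585). DHS167747 was the most negative at −3.17 ± 0.45 (adjusted p = 1.34e-10) and DHS111909 the most positive at 2.32 ± 0.46 (adjusted p = 7.14e-06) per the authors' deposited table. DHS158357, at 2.28 ± 0.45, was already positive at 6 h (1.64, adjusted p = 0.000213) per the authors' deposited tables. Among eRNAs, ENH9266 was at −2.46 ± 0.55 (adjusted p = 0.000542) and ENH6562 at 1.76 ± 0.72 (adjusted p = 0.0382), the latter positive also at 3 h (1.43, adjusted p = 0.00922), per the authors' deposited tables. With mean counts of 50 or more, 12 PROMPTs were negative and 1 positive, with the PROMPT of Gm24158 lowest at −2.35 ± 0.47 per the authors' deposited table. The positions of these features are not analysed here.

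PROMPTs did not follow their host genes closely. A tested host gene of the same name was found for 2240 PROMPTs. PROMPTs of negative hosts had a median of −0.06 (379 PROMPTs), those of uncalled hosts 0.02 (1720) and those of positive hosts 0.08 (141). In 27 cases both were called, 10 with the same sign and 17 with opposite signs. Of the latter, 13 paired a positive PROMPT with a negative host. These were 17.8% of the 73 positive PROMPTs with a tested host, and negative hosts made up 16.9% of all 2240. The PROMPT of Star, which carries cholesterol into mitochondria, was at 1.99 and its host at −2.03 per the authors' deposited tables, and for the corepressor Trim24 the values were 2.02 and −1.33. Both members were positive for Foxd1, a forkhead factor (8.85 and 4.02), Cyp1b1, a cytochrome P450 (4.74 and 3.41), and Dkk1 (4.26 and 4.52) per the authors' deposited tables. The Dkk1 and Foxd1 PROMPTs had mean counts of 3.44 and 11.6.

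Few genes were called before auxin, whether or not they were called at 12 h. Of the genes called at 12 h, 7 were also called in the authors' deposited 0 h table, 1 positive and 6 negative in both. They made up 0.0784% of the positive and 0.311% of the negative genes tested there (background 0.0201% positive and 0.355% negative). The 7 genes were Lgals3 (1.37 at 12 h and 1.12 at 0 h) and, on the negative side, Zfy1 (−2.39 and −2.54), Nrg4, Rasgrp1, Camk2b, Nlrp9b and Cdh3 (−0.95 and −1.63), per the authors' deposited tables. The Y-linked Zfy1 is thus among the 15 most negative genes at 12 h with a difference of like size at 0 h.

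The 6 h table held a part of the later calls. Of the 1366 genes positive at 12 h, 1040 were tested at 6 h, of which 82 were positive (7.88%, background 1.71%) and 0 negative. Those 82 were 38.3% of the 214 positive genes of the 6 h table, against 8.58% positive at 12 h over all genes. Of the 1932 negative genes, 1894 were tested at 6 h, of which 146 were negative (7.71%, background 1.39%) and 0 positive. Those 146 were 83.9% of the 174 negative genes of the 6 h table, against 12.1% negative at 12 h over all genes. In sign, 89.1% of the positive and 96.8% of the negative genes had the same sign at 6 h. Id2, at 4.47 at 12 h, stood at 0.10 (adjusted p = 0.441) at 6 h, and Tmem156, at 3.17, at 0.09 (adjusted p = 0.512), per the authors' deposited tables. Ptgs2 (1.98, adjusted p = 0.0285), Ccn2 (1.51, adjusted p = 0.000619) and L1cam (2.20, adjusted p = 0.00620) were called there already, per the authors' deposited table. Chac1 stood at 0.03 (adjusted p = 0.875) at 6 h and Slc25a18 at −1.17 (adjusted p = 0.00395) per the authors' deposited table.

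Many genes of both directions had the same sign after washout. Of 1320 positive genes tested in the authors' deposited washout table, 355 were positive and 20 negative (background 8.96% positive and 7.05% negative), with a median of 0.42. Of 1919 negative genes 284 were negative and 14 positive, with a median of −0.18. In sign, 71.8% of positive and 68.2% of negative genes matched, and the difference between these shares was not tested. Of the genes uncalled at 12 h, 48.8% had a positive and 51.2% a negative sign after washout. Single genes could be followed in the 8 washout libraries, Rep1 and Rep2 of the lines 10E and 11D in each group, given in that order and scaled by the median ratio over genes. The 4 libraries of a group are thus 2 lines, and their SD does not separate line from replicate. Totals ran from 11068135 to 16554314 counts in vehicle and from 6547992 to 10978586 in 3-IAA libraries, so every 3-IAA library was shallower. After scaling, the totals still differed, at 8719462 to 9963828 in vehicle and 12273033 to 16930513 in 3-IAA libraries. Values scaled by the library totals are given below where that changes the overlap of the groups. How often the groups fail to overlap over all genes was not counted, so the overlap of single genes has no reference share.

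Dkk1 had normalised counts of 3.60, 2.11, 3.21 and 0.553 in the vehicle libraries and 69.4, 49.7, 37.4 and 29.7 in the 3-IAA libraries. The groups did not overlap, and the authors' deposited washout table gave 4.33 (adjusted p = 6.36e-12). Ptgs2 had 1.80, 5.81, 2.57 and 6.08 in vehicle and 69.4, 37.3, 143 and 56.8 in 3-IAA libraries, again without overlap (4.13 in the authors' deposited washout table). Sema6a had 77.7 ± 53.6 in vehicle and 351 ± 82.4 in 3-IAA libraries (SD, n = 4 each), without overlap. Its vehicle values were 29.7 and 39.1 in the Rep1 and 97.7 and 144 in the Rep2 libraries.

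Id2, the gene with the smallest p at 12 h, had 12.6, 27.5, 10.3 and 12.7 in vehicle and 20.8, 10.9, 4.67 and 31.0 in 3-IAA libraries. The groups overlapped, and the authors' deposited washout table gave 0.13 (adjusted p = 0.919). Zfp42 had 3752 ± 389 in vehicle and 3545 ± 578 in 3-IAA libraries (SD, n = 4 each). The groups overlapped, and the authors' deposited washout table gave −0.09 (adjusted p = 0.765). Esrrb likewise overlapped, at 20384 ± 7016 and 17120 ± 969, with −0.25 (adjusted p = 0.538) in the authors' deposited washout table. Its vehicle values also split by replicate, 27951 and 24743 in Rep1 against 14807 and 14034 in Rep2 libraries. Scaling by library totals lowered the 3-IAA mean relative to the vehicle mean for every gene followed in these libraries. Neither Zfp42 nor Esrrb then overlapped. Zfp42 had 365 to 427 CPM in vehicle and 191 to 331 in 3-IAA libraries, and Esrrb 1534 to 2805 and 1015 to 1301. Gatb then did not overlap either (41.3 to 64.0 and 23.9 to 33.2 CPM), while L1cam did (0.361 to 2.24 and 1.83 to 3.05 CPM). Chac1 was lower in the 3-IAA libraries: 237, 483, 218 and 306 in vehicle against 30.1, 23.3, 45.6 and 96.9, without overlap (−2.75, adjusted p = 8.09e-10 in the authors' deposited washout table).

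**Figure D5:**
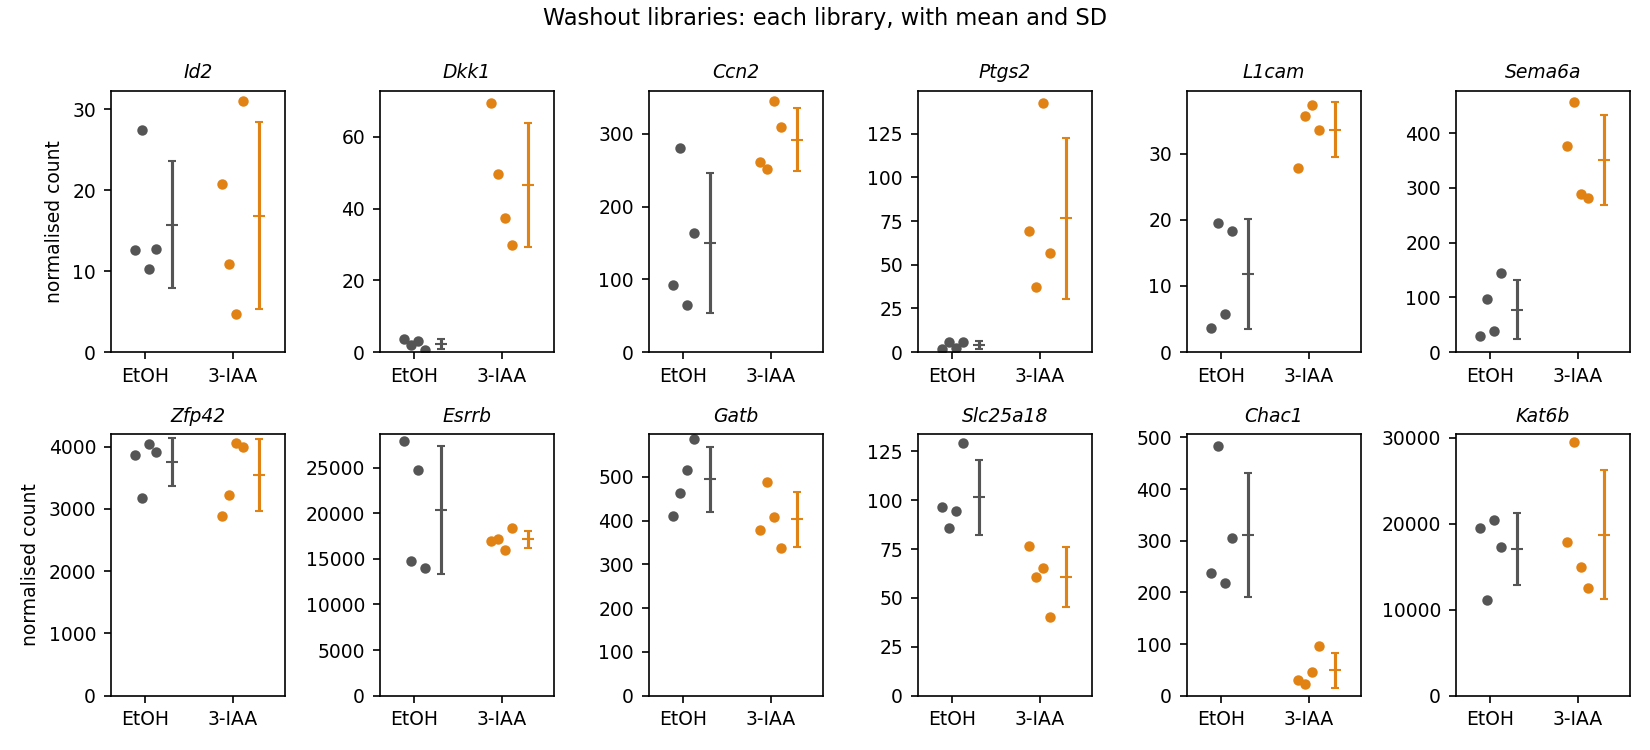
Counts scaled by the median ratio over genes (vertical, linear from 0) of 12 genes in the 4 vehicle (EtOH, grey) and 4 3-IAA (orange) washout libraries, 1 point a library, with the group mean and SD beside them. Dkk1, Ptgs2, L1cam, Sema6a, Chac1 and Slc25a18 show no overlap between the groups, while Id2, Ccn2, Zfp42, Esrrb, Gatb and Kat6b overlap at this scaling. The share of all genes without overlap was not counted.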

How the data were processed

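TT-seq of mouse E14 cells was read from tables the authors deposited. Per the file headers, the 12 h tables hold a normalised mean count (signal), a log2 fold change with its standard error and p-values before and after adjustment for each feature. STAR, deepTools and the build mm10 are named, with no role, per the submitters' processing notes. The counting method, model and groups compared of the time course are not given in the sources used here. The deposited log2 changes of the time course were shrunken toward 0, as the 0 h values show, while those of the washout were not. The deposited washout counts were made with featureCounts 2.0.1, counting on the strand over whole genes, per the file headers. Totals were 11068135 to 16554314 counts per vehicle library and 6547992 to 10978586 per 3-IAA library of the washout. The labels do not say whether replicates came from separate cultures.

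No model was fitted. Calls, medians and shares were tallied with Python 3.11.15 and pandas 2.3.3, and the tallies were tested on simulated data. Genes were matched by ID to GENCODE M21 for length and position. Washout counts were scaled by the median ratio over genes, and CPM per kb was averaged over the 4 vehicle libraries. The members and the 58 gene lists were chosen with earlier results of these data known.

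Named genes were, among called genes, the 15 highest and 15 lowest changes at mean counts of 100 or more (without predicted genes), the 10 smallest p in each direction, up to 4 members per list with uncalled members as counterexamples, the 5 longest and the 5 of highest level in each direction, neighbour pairs within 10 kb, noncoding features at mean counts of 50 or more, and the FACT genes. Some further list members, chosen after their values were seen, are also named. Near-identical copies are uncertain. Other thresholds, count minimums, length and level measures were tried. Results on some genes are not reported here.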

Additional observations from a re-analysis of the deposited data

Results flagged for a closer look

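Id2 in the vehicle washout libraries had one library apart from the others. The 4 normalised counts were 12.6, 27.5, 10.3 and 12.7, and the gap from 27.5 to the nearest library was large against the range of the group. Such a gap arises by chance in about 1 in 20 groups.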

How the results depend on the processing

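No paired analysis was possible because the 12 h results come from the authors' deposited tables, which hold no value of a single library. For the same reason no 12 h library could be left out. At an adjusted p under 0.01, 766 genes were positive and 1152 negative, against 1366 and 1932 at 0.05. At mean counts of 100 or more, 719 were positive, and with an absolute log2 change of at least 1, 787 were negative. For PROMPTs the positive and negative calls were 27 and 17 at 0.01, 166 and 131 at 0.1, and 38 and 21 with adjustment over every p-value. A mean count of at least 10 left 31 positive PROMPTs. For eRNAs they were 49 and 17 at 0.01, 249 and 255 at 0.1, and 90 and 51 with adjustment over every p-value, and a mean count of at least 10 left 80 positive. For DHSs they were 82 and 156 at 0.01 and 81 and 153 with adjustment over every p-value, with 315 positive at 0.1 and 112 positive at a mean count of at least 10. The positive share in the highest minus the lowest decile was −2.76 points by gene length and −1.06 by exon length, and −3.77 by mean count per kb and −8.48 by vehicle CPM per kb. At 0.1, PROMPT and host were called with the same sign in 29 cases and opposite signs in 28, against 10 and 17. The cause of these shifts was not tested, beyond the fewer or more features each setting admits. Without 1 vehicle library in turn, the negative share of long, strongly transcribed genes ran from 69.6% to 72.0% and their median from −0.95 to −0.94. Of 236 named genes, 53 were no longer called at 0.01 and 4 with adjustment over every p-value. Low counts limit the noncoding classes. Some settings were chosen after seeing the data: leaving out genes called at 0 h, RefSeq length, leaving out spans over 3 times the RefSeq length, and the level and library choices for the long, strongly transcribed class. Also chosen after seeing the data, scaling the washout libraries by their totals moved the log2 ratio of the 3-IAA to the vehicle mean from −0.08 to −0.68 for Zfp42, from −0.25 to −0.86 for Esrrb and from −0.29 to −0.93 for Gatb, whose groups then no longer overlapped, while those of L1cam did (1.51 to 0.85). The overlapping Id2 and Kat6b changed sign, from 0.10 to −0.58 and from 0.13 to −0.52. Every gene followed in these libraries moved down at this scaling, Dkk1 from 4.30 to 3.67 and Chac1 from −2.67 to −3.28 among them.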
